A study of Mus musculus with 15 samples.

Results

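The genes described here are 32 members of the p53 pathway, 31 genes that p53 is known to switch on and Trp53, the gene for p53 itself. They were taken as a list by gene symbol, and all 32 were found among the 45706 genes of each library's table. The list was chosen with earlier results of these data known. Its counts beside the shares of all genes therefore describe it and are not an independent test. All are annotated as protein-coding on GRCm38 in GENCODE. They were divided by role into p53 and its feedback (3 genes), growth arrest (6), cell death (11), DNA repair (5), and metabolism and signalling (7).

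The p53 protein is a transcription factor that is made all the time and destroyed almost as fast, mainly by the ubiquitin ligase MDM2. DNA damage, oncogene activity and other stresses stop that destruction, and p53 then binds response elements near its targets and raises their transcription. The targets halt the cell cycle, repair DNA, change metabolism or start cell death, and because Mdm2 is among them the response also limits itself. In the oligodendrocyte lineage p53 has been linked both to leaving the cell cycle and to death after damage.

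The study measured polyA RNA in primary cultures from brains of SRF-floxed/floxed mice, whose Srf gene carries sites for the Cre recombinase in both copies. The protein it encodes, serum response factor (SRF), drives cytoskeletal and immediate-early genes. Oligodendrocyte precursor cells (OPCs) were captured on antibody-coated dishes, and on culture day 3 received an adeno-associated virus with a CMV promoter driving either active Cre (SRF-KO OPC, 3 libraries) or a deleted Cre (control OPC, 4 libraries), and were frozen after 48 hours. Other cultures received a lentivirus carrying CRE-IRES-GFP (SRF-KO OL, 4 libraries) or GFP (control OL, 4 libraries) on day 6 and were frozen on day 3 of differentiation toward oligodendrocytes (OLs). The treatment label of the SRF-KO OL samples names the Cre virus but ends in the word control, so groups follow the titles. All 15 libraries share the floxed alleles and a virus. No library had Cre without floxed alleles, so an effect of Cre itself, which can cut DNA, and an effect of SRF loss cannot be told apart. The labels do not say whether replicates came from separate litters or cultures, so p-values measure the spread between these libraries, which may be technical.

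Some members carry a match to the p53 element next to a transcription start. These sequences are shown because p53 binds elements of that consensus, but binding was not measured here. RefSeq promoter windows on GRCm38.p6, 250 bases before to 50 after each start, were used for 24 of the 32 genes. They were searched for a pair of 10-base p53 half-sites, each with the intact core CNNG in which both inner bases were A or T, at most 1 base apart and with at most 3 mismatches in all to the p53 consensus, which reads the same on both strands. Such a pair was found for 6 of the 24 genes (25.0%) and for 332 of the 27025 genes with a searched window (1.23%). Not every gene had a searched window, and genes without one were not tested for a pair. A gene counted if any of its windows held a pair. The windows of other starts of Cdkn1a (chr17:29093769) and Bbc3 (chr7:16310261 and chr7:16310431) held none. In the lines below the half-sites are in capitals, with 4 flanking bases on each side, on the strand of the gene.
Cdkn1a: tcagGAACATGTCTTGACATGTTCagcc
Trp53: ggaaGGACTTGCCCTTACTTGTTAtggc
Bax: tcccAGGCAAGCTTtGAACTTGCGGcaat
Bbc3: ccgaCTGCAAGCCCCGACTTGTCCccag
Aen: agccGGGCTTGTCCGGGCAAGGAGcttc
Tigar: cggcGGTCTAGCTCTGGCAAGACTccag

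Positions in brackets are those of the printed lines, with the 4 flanking bases on each side. The Cdkn1a pair (chr17:29090924-29090951, plus strand) had 1 mismatch and the Bax pair (chr7:45467075-45467103, minus strand) had 2 and a 1-base gap. The pairs of Trp53 (chr11:69580280-69580307, plus), Bbc3 (chr7:16309482-16309509, plus), Aen (chr7:78895933-78895960, plus) and Tigar (chr6:127109742-127109769, minus) each had 3 mismatches. A CArG box, the element that SRF binds, was present in the window of 1 of the 24 genes (4.17%), Tigar, and of 1.81% of the genes searched. The GC box GGGCGG, on either strand, was present for 75.0% of the 24 and 38.2% of the genes searched. Matches of this kind describe letters in a short window and do not show binding. Among the 6 genes with a pair, scaled counts (CPM, below) of the SRF-KO OPC libraries lay above every control for Cdkn1a and Aen. They overlapped the controls for Trp53, Bax, Bbc3 and Tigar.

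OPC libraries held between 8964310 and 16026511 expected counts (controls) or between 9074812 and 15125229 (knockouts). OL libraries held between 7188698 and 13139258 (controls) or between 4303739 and 11721394 (knockouts). Srf was measured as a count scaled to the library total with TMM factors (CPM). OPC controls had 7.91, 5.57, 9.67 and 8.34 CPM of Srf and the knockouts 0.221, 0.196 and 0.215, while OL controls had 7.91, 8.79, 9.34 and 7.13 and the knockouts 3.05, 2.71, 2.06 and 4.34. It fell in both stages, with edgeR quasi-likelihood adjusted p of 0.000569 and 0.0224, so part of the OL message remained. A library stood apart in each stage. SRF-KO OL replicate 4 lay at 80.5 on the first principal component (40.5% of the variance) against -18.8 to 0.448 for the other OL libraries, with 14.2% of counts from mitochondrial genes against 9.08% to 11.6%. SRF-KO OPC replicate 2 lay at 47.6 (27.3%) against -23.0 to 6.01. Counts and medians of the list and of each role are given with and without these libraries, and so are the single genes whose value moved most without one. OPC markers (Pdgfra, Cspg4, Ptprz1, Lhfpl3, Gpr17) summed to 2060 to 2419 CPM in the OPC libraries, and of the oligodendrocyte markers Mog was at 0 in all of these libraries. In OLs the oligodendrocyte marker Mbp had a mean of 9556 CPM in controls and 5904 in knockouts (log2 -0.69, SE 0.24, edgeR adjusted p = 0.295), and Mog had 130.3 and 117 (log2 -0.15, SE 0.18, edgeR adjusted p = 0.813). The 5 astrocyte markers summed to 814 to 882 CPM in OPC controls and 985 to 1067 in OPC knockouts (5 of 5 positive). In OLs they summed to 15980.5 to 33156 in controls and 7690 to 12887 in knockouts (1 of 5 positive), most of it Gfap. Thus the cultures labelled OL also held RNA of astrocyte genes. Microglial, endothelial and mural or fibroblast markers summed to at most 3.60 CPM in any OPC library. These sums moved between the groups compared below, and their part in the results was not tested. In bulk RNA, fewer cells of a type and less RNA per cell cannot be told apart.

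In SRF-KO OPCs the p53 pathway genes were mostly a little higher than in controls. Of the 32 members, all of which could be tested, 27 had a positive log2 fold change, and the median was 0.29. Over all 13271 genes tested, 6608 were positive and the median was near 0 (-0.0013). At an adjusted p under 0.05 in edgeR's quasi-likelihood test 1 member rose, Dcxr, where 0.0226% of all genes tested rose. At an unadjusted p under 0.05, 17 members were higher and 0 lower, against 5.57% of all genes higher. In 14 members every SRF-KO library lay above every control and in 0 every one lay below, while 5.96% of all genes had the knockouts above.

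The shift was visible in each OPC library. The median log2 deviation of the members from the control mean was -0.03, 0.06, -0.02 and -0.02 in the 4 controls and 0.25, 0.32 and 0.28 in the 3 knockouts, so the knockout libraries lay close together and clear of the controls. Without SRF-KO OPC replicate 2, 26 of 32 members were positive with a median of 0.24, 15 were higher at an unadjusted p under 0.05 (4.04% of all genes) and 17 did not overlap (9.34% of all genes), and 0 were called. DESeq2 called 10 members, where it called 0.527% of all genes as higher. These were Ccng1, Btg2, Cdkn1a, Pmaip1, Fas, Ercc5, Ak1, Aen, Eda2r and Dcxr.

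**Figure D1:**
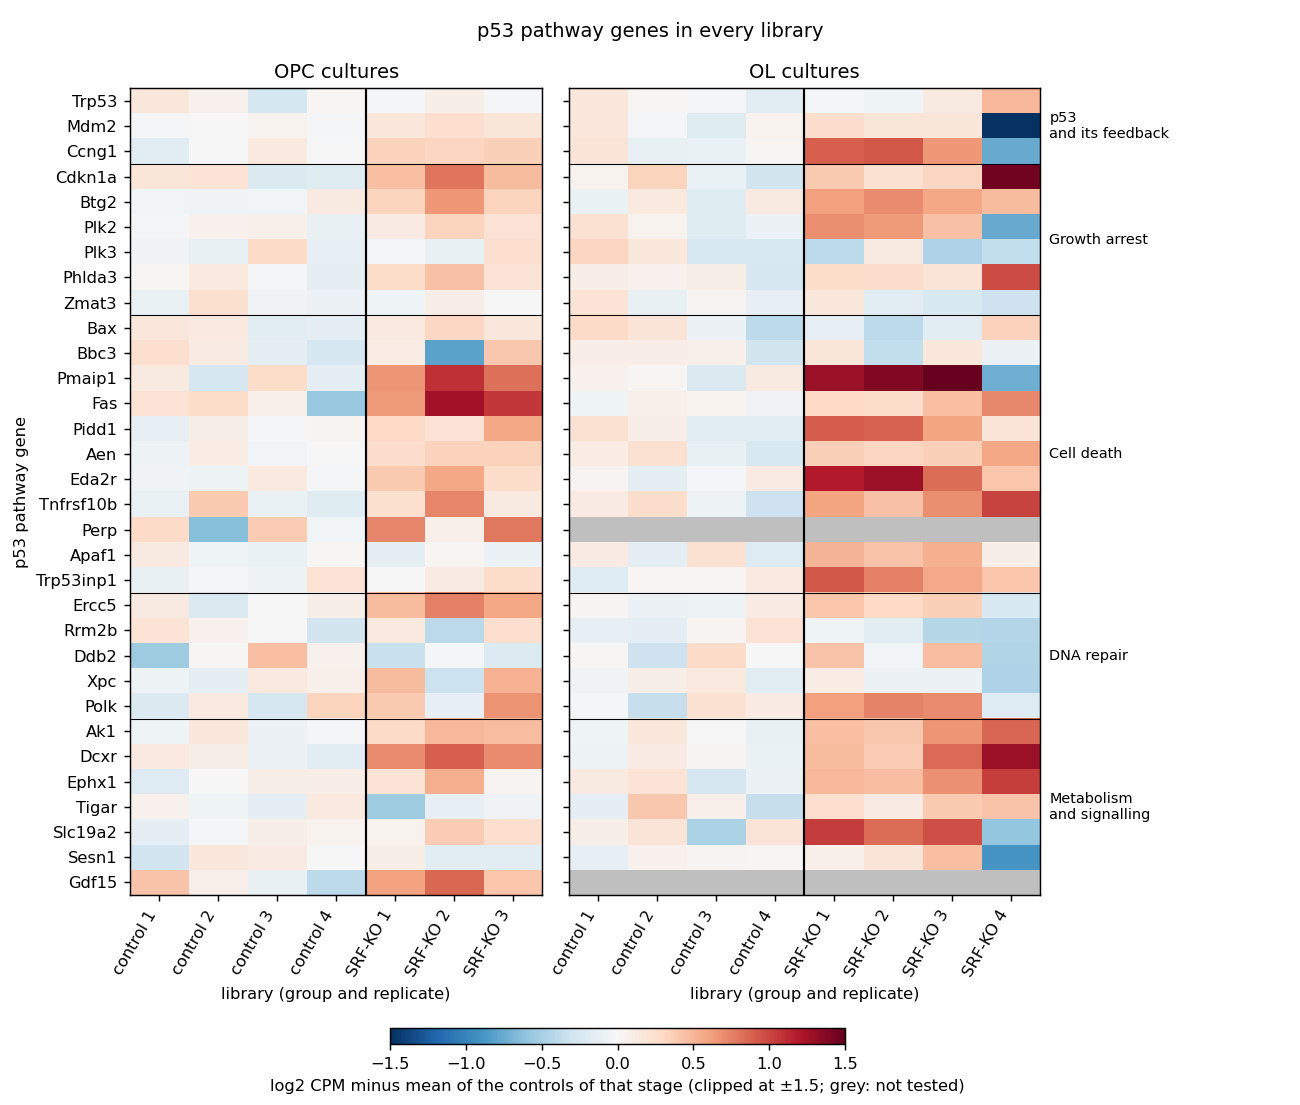
Heat map of the 32 p53 pathway genes (rows, grouped by role) in every library (columns), OPC cultures left and OL cultures right. Colour is log2 CPM minus the mean of that stage's controls, clipped at 1.5 in either direction, with red higher and grey for genes not tested. The 3 SRF-KO OPC columns are mostly pale red (medians 0.25, 0.32 and 0.28), while SRF-KO OL replicate 4 mixes the deepest reds and blues.

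In SRF-KO OLs the same list was again mostly higher, with more spread. Perp and Gdf15 were too low to test, with at most 9 and 8 counts in any OL library. Of the other 30 members 23 had a positive log2 fold change and the median was 0.43. Over all 15193 genes tested 8187 were positive and the median was 0.02. In edgeR's quasi-likelihood test 0 members passed an adjusted p of 0.05, which 0.0658% of all genes passed as higher. At an unadjusted p under 0.05, 16 members were higher and 0 lower (5.84% of all genes higher), and 10 had every SRF-KO library above every control (4.19% of all genes). With library totals in place of TMM scaling the median of all genes was 0.24 and that of the members 0.65. Then 28 of 30 members were positive, all but Plk3 and Rrm2b, and so were 12275 of all 15193 genes. The signs of Mdm2, Bax, Bbc3, Zmat3 and Xpc in OLs thus depend on the scaling. Library totals called 3 members, Ak1, Eda2r and Ephx1, and 0.257% of all genes as higher. DESeq2 called 6 as higher, Btg2, Ak1, Trp53inp1, Eda2r, Ephx1 and Dcxr, against 0.658% of all genes.

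The OL result changed with 1 library. Member medians were 0.07, 0.07, -0.03 and -0.09 in the 4 control OLs and 0.42, 0.31, 0.45 and 0.14 in the 4 knockouts. SRF-KO OL replicate 4 was the highest of the knockouts for 11 of the 30 tested members and the lowest for 17, above all controls for 14 and below all controls for 12. Without it, 11 members rose at an adjusted p under 0.05 in edgeR, where 1.5% of all 15434 genes rose, while the median was 0.32 and 23 members were positive. These 11 were Pmaip1, Eda2r, Slc19a2, Pidd1, Ccng1, Trp53inp1, Polk, Btg2, Plk2, Ephx1 and Ak1. In the same 7 libraries 20 members did not overlap (11.8% of all genes) and 18 were higher at an unadjusted p under 0.05 (9.66% of all genes).

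**Figure D2:**
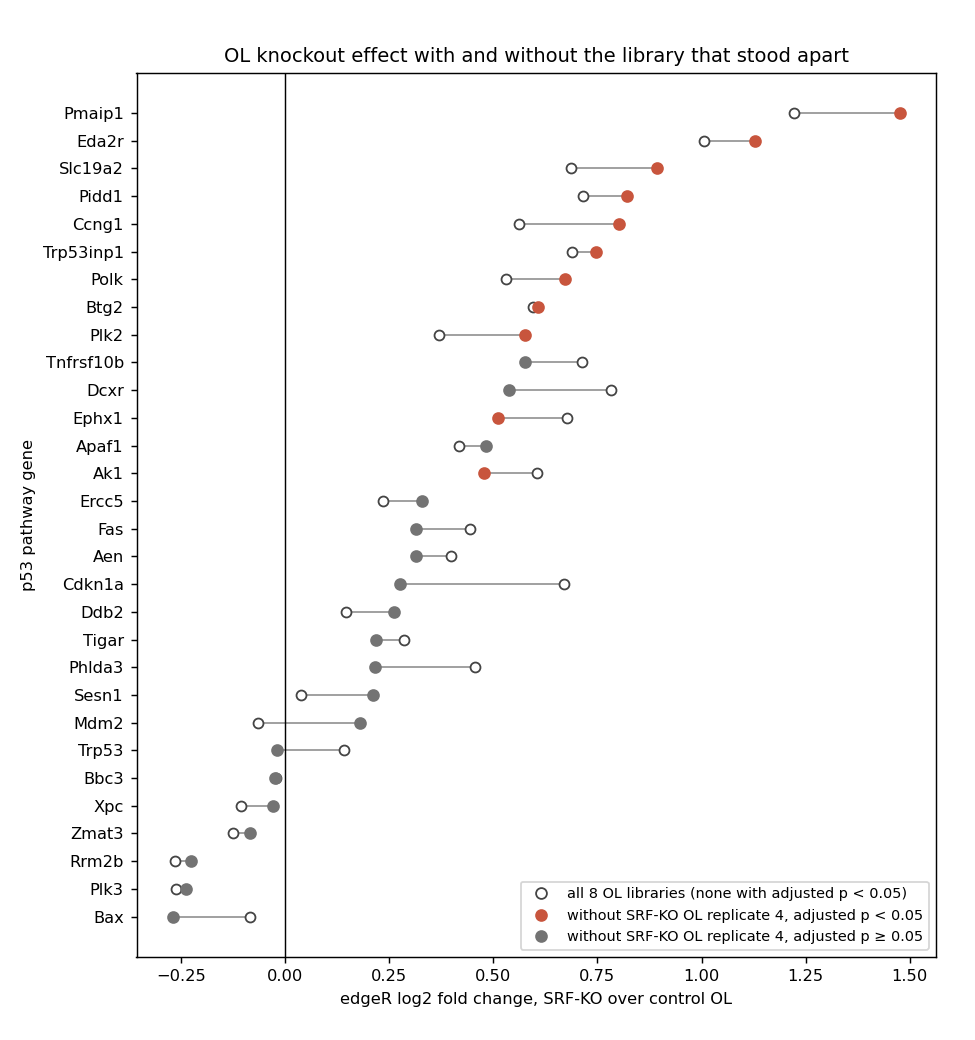
edgeR log2 fold change (SRF-KO over control OL) of the 30 tested p53 pathway genes with all 8 OL libraries (open circles) and without SRF-KO OL replicate 4 (filled circles, orange where adjusted p is under 0.05). The line joins the values of a gene. Pmaip1 goes from 1.22 to 1.48 and Ccng1 from 0.56 to 0.80, while Cdkn1a goes from 0.67 to 0.27 and Mdm2 from -0.07 to 0.18.

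The first role group is p53 itself and the genes that feed back on it. Trp53 (chromosome 11, 69580359 to 69591873, plus strand) had 132, 123, 97.4 and 120.1 CPM in the control OPCs and 116, 124 and 116 in the SRF-KO OPCs. The 3 knockouts lay within the range of the controls. Its log2 fold change was 0.01 (SE 0.11, edgeR adjusted p = 0.986), a sign that turned under 2 other ways of scaling or measuring and without 2 of the libraries. In OLs it had 50.8, 45.4, 44.1 and 40.5 CPM in controls and 44.1, 43.1, 49.4 and 63.6 in knockouts, with replicate 4 alone above the controls (log2 0.14, SE 0.15, edgeR adjusted p = 0.791). Without that library the log2 fold change was -0.019. The Trp53 message therefore showed no difference beyond its spread, and p53 protein was not measured.

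Mdm2 (chromosome 10, 117688875 to 117710758, minus strand) encodes the ligase that marks p53 for destruction and is itself a p53 target. It had 169.8, 173, 179 and 169.9 CPM in control OPCs and 195, 206 and 196 in SRF-KO OPCs. The groups did not overlap, with a narrow spread in both, and the log2 fold change was 0.20 (SE 0.07, edgeR adjusted p = 0.332). In OLs Mdm2 had 94.3, 81.9, 73.8 and 87.1 CPM in controls and 101, 95.4, 95.2 and 29.8 in knockouts. The first 3 knockout libraries lay just above every control and replicate 4 far below them. The log2 fold change was -0.07 (SE 0.30), and it was 0.16 with library totals in place of TMM scaling and 0.18 (SE 0.10, edgeR adjusted p = 0.332) without replicate 4.

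Ccng1 (chromosome 11, 40748552 to 40755311, minus strand) encodes cyclin G1, a strong p53 target that acts on MDM2. It had 727, 819, 900.4 and 816 CPM in control OPCs and 1033, 1014 and 1042 in SRF-KO OPCs. All knockouts were above all controls and close to each other (log2 0.34, SE 0.08, edgeR adjusted p = 0.194). In OLs the values were 263, 212, 215 and 232 CPM in controls and 427, 436, 362 and 135 in knockouts. Replicates 1 to 3 lay above, and replicate 4 below, every control. With all libraries the log2 fold change was 0.56 (SE 0.30, edgeR adjusted p = 0.520), and without replicate 4 Ccng1 rose by 0.80 (SE 0.12, edgeR adjusted p = 0.00711). Over the 3 genes of this group the median log2 fold change was 0.20 in OPCs (0.18 without SRF-KO OPC replicate 2) and 0.14 in OLs. Without SRF-KO OL replicate 4 the OL median was 0.18, and 2 of the 3, in place of 0, did not overlap (11.8% of all genes, in place of 4.19%).

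The growth arrest group had positive log2 fold changes for 6 of 6 members in OPCs, with a median of 0.27, and for 4 of 6 in OLs, with a median of 0.41. In OPCs 4 of the 6 did not overlap between groups, Cdkn1a, Btg2, Plk2 and Phlda3, and in OLs 2, Btg2 and Phlda3. When SRF-KO OPC replicate 2 was left out the OPC median was 0.20 with 4 not overlapping (9.34% of all genes, in place of 5.96%). When SRF-KO OL replicate 4 was left out the OL median was 0.245 with 3 not overlapping (11.8% of all genes, in place of 4.19%). Cdkn1a (chromosome 17, 29090976 to 29100727, plus strand), whose promoter pair is shown above, encodes p21, the inhibitor of cyclin-dependent kinases through which p53 stops the cell cycle. It had 408, 415, 309 and 316 CPM in control OPCs and 490.2, 624 and 500.2 in SRF-KO OPCs. The highest knockout was replicate 2, the library that stood apart, yet the other two also exceeded every control (log2 0.57, SE 0.13, edgeR adjusted p = 0.187). In OLs Cdkn1a had 62.7, 76.5, 56.5 and 49.95 CPM in controls and 79.5, 71.1, 75.9 and 166 in knockouts. Control replicate 2 overlapped the knockouts, and replicate 4 of the knockouts was the highest of all by a wide margin. The log2 fold change of 0.67 (SE 0.26, edgeR adjusted p = 0.367) was 0.27 (SE 0.13, edgeR adjusted p = 0.228) without it.

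Btg2 (chromosome 1, 134075170 to 134079120, minus strand) encodes an antiproliferative protein that promotes shortening of mRNA tails. It had 131, 131, 132 and 149 CPM in control OPCs and 170.1, 213 and 170.3 in SRF-KO OPCs (log2 0.45, SE 0.10, edgeR adjusted p = 0.187). OL controls had 17.4, 20.7, 16.4 and 20.5 CPM and the OL knockouts 28.7, 30.6, 28.0 and 26.0. Replicate 4 was the lowest of these knockouts but still above every control, and the groups were separate in both stages. The OL log2 fold change was 0.60 (SE 0.13, edgeR adjusted p = 0.114), and without replicate 4 Btg2 rose by 0.61 (edgeR adjusted p = 0.0158).

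Of the other 4 arrest genes, Phlda3 and Plk2 had separate groups in OPCs and Plk3 and Zmat3 did not. Phlda3, a repressor of AKT, had 184 ± 15.1 CPM in control OPCs (SD, n = 4) and 227 ± 18.6 in SRF-KO OPCs (SD, n = 3), and in OLs 73.7 ± 8.19 and 101 ± 29.2 (SD, n = 4 each). Its OL log2 fold change was 0.46 (SE 0.19), and 0.22 (SE 0.10, edgeR adjusted p = 0.252) without replicate 4. Plk2, a polo-like kinase induced by stress, had 329 ± 19.3 and 385 ± 29.2 CPM in OPCs. In OLs Plk2 was 19.7 ± 2.50 in controls and 25.1 ± 9.34 in knockouts, and without replicate 4 it rose by 0.58 on the log2 scale (edgeR adjusted p = 0.0220). Plk3, its relative, and Zmat3, an RNA-binding zinc finger protein, had log2 fold changes of 0.04 and 0.01 in OPCs and of -0.26 and -0.12 in OLs, all with overlapping groups. Without SRF-KO OPC replicate 2 the OPC values were 0.12 for Plk3 and -0.04 for Zmat3. Plk3 lies across Tctex1d4 on the opposite strand, and these libraries do not mark strand, so its counts are uncertain.

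**Figure D3:**
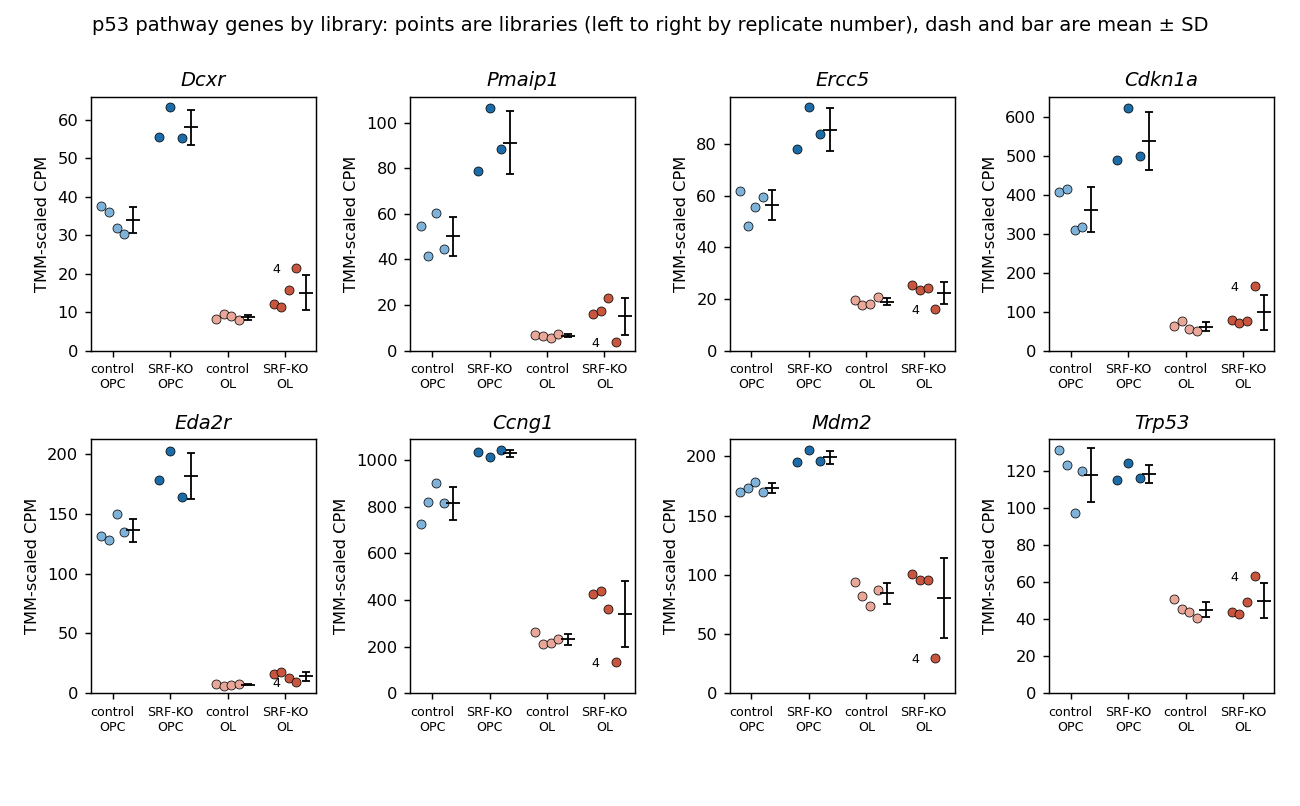
TMM-scaled CPM (vertical axes, from 0) of 8 p53 pathway genes in every library of the 4 groups. Points are libraries in replicate order, dash and bar are mean ± SD, and the label 4 marks SRF-KO OL replicate 4. In OPCs the SRF-KO points lie above the controls for every gene drawn except Trp53, and SRF-KO OL replicate 4 lies below its group for Pmaip1, Ercc5, Eda2r, Ccng1 and Mdm2 and above it for Dcxr, Cdkn1a and Trp53.

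Among the cell death genes, 9 of 11 were positive in OPCs with a median of 0.37 and 5 did not overlap (Pmaip1, Fas, Pidd1, Aen and Eda2r). In OLs 8 of the 10 tested were positive with a median of 0.57, and 5 did not overlap (Fas, Aen, Eda2r, Tnfrsf10b and Trp53inp1). Leaving out SRF-KO OPC replicate 2 gave an OPC median of 0.31 with 6 not overlapping (9.34% of all genes, in place of 5.96%). Leaving out SRF-KO OL replicate 4 gave an OL median of 0.53 with 8 not overlapping (11.8% of all genes, in place of 4.19%). Pmaip1 (chromosome 18, 66458533 to 66465565, plus strand) encodes NOXA, which blocks survival proteins of the BCL family. It had 54.5, 41.5, 60.2 and 44.8 CPM in control OPCs and 79.0, 106 and 88.4 in SRF-KO OPCs, the second largest log2 fold change among the members in OPCs at 0.87 (SE 0.14, edgeR adjusted p = 0.0701). In OLs it had 6.70, 6.50, 5.51 and 7.06 CPM in controls and 16.1, 17.2, 23.2 and 3.77 in knockouts. Replicates 1 to 3 of the knockouts were far above the controls and replicate 4 was below them all. With that library the log2 fold change was 1.22 (SE 0.37, edgeR adjusted p = 0.237), and without it Pmaip1 rose by 1.48 (SE 0.15, edgeR adjusted p = 0.000717), more than any other member.

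Eda2r (chromosome X, 97333840 to 97377216, minus strand) encodes a receptor of the tumour necrosis factor family for ectodysplasin A2. It had 131, 128, 149.8 and 134 CPM in control OPCs and 178, 202 and 164 in SRF-KO OPCs (log2 0.42, SE 0.10, edgeR adjusted p = 0.187). OL controls had 7.26, 6.33, 6.89 and 7.69 CPM and the OL knockouts 16.3, 17.3, 12.8 and 9.43. All knockouts exceeded all controls in both stages. With a log2 fold change of 1.01 (SE 0.19) it had the smallest edgeR adjusted p of the members in OLs, 0.0649, and without replicate 4 it rose by 1.13 (edgeR adjusted p = 0.00369).

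Trp53inp1 (chromosome 4, 11156431 to 11174379, plus strand) encodes a stress protein that promotes p53 activity and cell death. It had 155, 165, 159 and 194 CPM in control OPCs and 168, 182 and 203 in SRF-KO OPCs, with overlapping groups (log2 0.13, SE 0.10, edgeR adjusted p = 0.632). The OL values were 19.5, 22.9, 22.6 and 24.7 CPM in controls and 42.9, 38.1, 33.3 and 30.0 in knockouts, which were all above the controls. Its OL log2 fold change was 0.69 (SE 0.15, edgeR adjusted p = 0.0997), and without replicate 4 it rose by 0.75 (edgeR adjusted p = 0.0105).

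The remaining 8 death genes differed among themselves. The death receptor Fas had 8.85 ± 2.14 CPM in control OPCs and 17.5 ± 3.72 in SRF-KO OPCs, a log2 fold change of 0.98 (SE 0.23) that was the largest of the members there (edgeR adjusted p = 0.196). In OLs Fas had 46.8 ± 2.26 and 63.8 ± 9.44 CPM, again without overlap. Aen, an apoptosis-enhancing nuclease with a matched pair near its start, had 209 ± 11.7 and 261 ± 8.01 CPM in OPCs. Its OL values were 53.7 ± 7.83 and 70.8 ± 6.05 CPM. Pidd1, a scaffold for caspase activation, had 30.2 ± 1.89 and 39.1 ± 5.39 CPM in OPCs, and in OLs 3.64 ± 0.524 and 5.88 ± 1.32, with a rise of 0.82 on the log2 scale without replicate 4 (edgeR adjusted p = 0.0350). The 2 best known p53 effectors at the mitochondrion did not have separate groups by CPM in either stage. Bax, which forms pores in the outer membrane, had a log2 fold change of 0.20 (SE 0.10) in OPCs and -0.08 (SE 0.19) in OLs, and Bbc3, which encodes PUMA, had -0.05 (SE 0.27) and -0.02 (SE 0.19), all with overlapping groups. Bbc3 in OPCs was 0.25 (SE 0.21) without SRF-KO OPC replicate 2. Bax in OLs was -0.27 (SE 0.14) without SRF-KO OL replicate 4. With library totals in OLs both values were positive, 0.15 and 0.21. Per transcript length (TPM), the OPC groups of Bax were separate, with 713, 786 and 734 in knockouts and 639 to 710 in controls. Those of Bbc3 overlapped in TPM as well. Bax overlaps the gene model Gm45808, so its counts are uncertain. Apaf1, the core of the apoptosome, had -0.07 (SE 0.11) in OPCs, or -0.12 without SRF-KO OPC replicate 2, and 0.42 (SE 0.17) in OLs. The death receptor Tnfrsf10b had 9.82 ± 1.96 and 12.8 ± 2.98 CPM in OPCs and 1.97 ± 0.364 and 3.30 ± 0.614 in OLs, where the groups were separate. Its OPC log2 fold change of 0.38 (SE 0.21) was 0.16 (SE 0.22) without SRF-KO OPC replicate 2. Perp, a membrane protein of junctions, was low at 2.76 ± 0.840 and 4.02 ± 1.05 CPM in OPCs.

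In the DNA repair group 4 of 5 members were positive in OPCs with a median of 0.27, and 3 of 5 in OLs with a median of 0.15. The groups were separate for 1 member in OPCs, Ercc5, and for 0 in OLs. Both libraries that stood apart bear on these summaries. Without SRF-KO OPC replicate 2 the OPC median was 0.51 and 3 members were separate (9.34% of all genes, in place of 5.96%). With SRF-KO OL replicate 4 left out the OL median was 0.26 and 2 were separate (11.8% of all genes, in place of 4.19%). Ercc5 (chromosome 1, 44147744 to 44181260, plus strand) encodes XPG, an endonuclease of nucleotide excision repair. It had 61.7, 48.4, 55.8 and 59.6 CPM in control OPCs and 78.1, 94.5 and 84.1 in SRF-KO OPCs (log2 0.60, SE 0.11, edgeR adjusted p = 0.0972). In OLs it had 19.4, 17.8, 18.1 and 20.7 CPM in controls and 25.3, 23.4, 24.3 and 16.2 in knockouts, replicate 4 being the lowest of all 8. The OL log2 fold change was 0.24 (SE 0.15), and 0.33 (SE 0.11, edgeR adjusted p = 0.101) without it.

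Polk (chromosome 13, 96480690 to 96542579, minus strand) encodes a polymerase that copies past DNA lesions. It had 23.0, 29.7, 22.4 and 33.7 CPM in control OPCs and 35.2, 24.7 and 42.9 in SRF-KO OPCs, with replicate 2 within the controls (log2 0.32, SE 0.20, edgeR adjusted p = 0.541). Without replicate 2 the log2 fold change was 0.52 (SE 0.18, edgeR adjusted p = 0.460). In OLs it had 11.0, 8.70, 13.01 and 12.1 CPM in controls and 17.1, 18.8, 18.3 and 9.62 in knockouts. Replicates 1 to 3 exceeded every control, and without replicate 4 Polk rose by 0.67 (SE 0.15, edgeR adjusted p = 0.0256). The gene model Gm17622 overlaps Polk on the opposite strand, which leaves its counts uncertain.

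Rrm2b (chromosome 15, 37923952 to 37961318, minus strand) encodes the p53-induced subunit of ribonucleotide reductase, which supplies nucleotides for repair. It had 25.3, 22.9, 21.9 and 18.1 CPM in control OPCs and 24.3, 16.6 and 26.1 in SRF-KO OPCs, a complete overlap (log2 0.01, SE 0.18, edgeR adjusted p = 0.991). Without replicate 2 it was 0.19 (SE 0.16, edgeR adjusted p = 0.755). The OL values were 16.0, 15.9, 18.1 and 20.5 CPM in controls and 16.7, 15.6, 12.96 and 12.8 in knockouts (log2 -0.26, SE 0.15, edgeR adjusted p = 0.549). Of the damage sensors of nucleotide excision repair, Xpc had log2 fold changes of 0.27 (SE 0.20) in OPCs and -0.11 (SE 0.16) in OLs, and Ddb2 had -0.22 (SE 0.39) and 0.15 (SE 0.21). The groups overlapped for both genes in both stages. Xpc in OPCs was 0.51 (SE 0.14, edgeR adjusted p = 0.356) without SRF-KO OPC replicate 2. The OL values were -0.03 for Xpc and 0.26 for Ddb2 when SRF-KO OL replicate 4 was left out. Ddb2 had only 2.19 ± 0.633 CPM in control OPCs and shares its locus with Acp2 on the opposite strand.

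Metabolism and signalling held the single member that passed in OPCs. In OPCs 5 of 7 were positive with a median of 0.28 and 2 did not overlap (Ak1 and Dcxr), and in OLs 6 of 6 tested were positive with a median of 0.64 and 3 did not overlap (Ak1, Dcxr and Ephx1). Over all genes 5.96% in OPCs and 4.19% in OLs had the knockouts above without overlap. Without SRF-KO OPC replicate 2 the OPC median was 0.15. The members higher at an unadjusted p under 0.05 then went from 5 to 2 (all genes from 5.57% to 4.04%). Without SRF-KO OL replicate 4 the OL median was 0.49 and 5 did not overlap (11.8% of all genes). Dcxr (chromosome 11, 120725399 to 120727281, minus strand) encodes a reductase of sugars and dicarbonyls. It had 37.6, 36.03, 31.96 and 30.3 CPM in control OPCs and 55.7, 63.3 and 55.3 in SRF-KO OPCs. The gap between the groups was wider than the range within either, and Dcxr rose by 0.77 on the log2 scale (SE 0.11, edgeR adjusted p = 0.0342). The call needed all 7 libraries, since leaving out any 1 of them gave edgeR adjusted p of 0.0612 to 0.125 with log2 fold changes of 0.70 to 0.83. In OLs Dcxr had 8.19, 9.40, 8.88 and 8.03 CPM in controls and 12.0, 11.3, 15.6 and 21.5 in knockouts, again separate, with replicate 4 the highest (log2 0.78, SE 0.21, edgeR adjusted p = 0.179). The log2 fold change without that library was 0.54 (SE 0.15, edgeR adjusted p = 0.0569).

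Ak1 (chromosome 2, 32621758 to 32635058, plus strand) encodes the cytosolic adenylate kinase, which balances adenine nucleotides. It had 118, 138, 116 and 122 CPM in control OPCs and 149.9, 174 and 169.9 in SRF-KO OPCs (log2 0.42, SE 0.09, edgeR adjusted p = 0.187). OL controls had 38.2, 45.0, 39.6 and 37.0 CPM and the OL knockouts 54.6, 52.7, 63.3 and 73.0 (log2 0.60, SE 0.14, edgeR adjusted p = 0.154). The knockouts exceeded the controls in both stages, and without replicate 4 the OL rise was 0.48 (edgeR adjusted p = 0.0263).

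Ephx1 (chromosome 1, 180976210 to 181020904, minus strand) encodes microsomal epoxide hydrolase, a detoxifying enzyme. It had 143, 164, 174 and 176 CPM in control OPCs and 189, 239 and 169 in SRF-KO OPCs, where replicate 3 fell among the controls (log2 0.28, SE 0.12, edgeR adjusted p = 0.405). Replicate 2 was the highest, and without it the log2 fold change was 0.12 (SE 0.10, edgeR adjusted p = 0.753). In OLs it had 99.9, 105, 76.1 and 85.9 CPM in controls and 128, 126, 146 and 187 in knockouts, with every knockout above (log2 0.68, SE 0.17, edgeR adjusted p = 0.169). Without replicate 4 it rose by 0.51 (edgeR adjusted p = 0.0290).

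Of the other 4 genes of this group, the thiamine transporter Slc19a2 had 70.7 ± 4.67 and 83.2 ± 9.54 CPM in OPCs (log2 0.24, SE 0.10, and 0.15 without SRF-KO OPC replicate 2). In OLs Slc19a2 had 9.83 ± 2.00 and 15.8 ± 6.35 CPM and, without replicate 4, rose by 0.89 on the log2 scale (edgeR adjusted p = 0.0118). Gdf15, a secreted stress signal, had 5.95 ± 1.49 CPM in control OPCs and 9.17 ± 1.46 in SRF-KO OPCs (log2 0.62, SE 0.24, edgeR adjusted p = 0.354). Tigar, which diverts sugar from glycolysis, and the sestrin Sesn1, an inhibitor of mTORC1, had negative log2 fold changes in OPCs, -0.23 (SE 0.20) and -0.09 (SE 0.13), and values of 0.28 (SE 0.25) and 0.04 (SE 0.22) in OLs. Sesn1 was -0.05 in OPCs without SRF-KO OPC replicate 2 and 0.21 in OLs without SRF-KO OL replicate 4. The groups overlapped for both genes in both stages.

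The stages were then compared for the size of the knockout effect, with the interaction of stage and genotype over 15 libraries. OPC and OL tables were quantified differently and the cultures received different viruses, so these differences are between whole experiments. In edgeR 0 of the 32 members passed an adjusted p of 0.05, which 0.112% of the 16135 genes passed in either direction. At an unadjusted p under 0.05, 3 members had a larger effect in OLs (4.6% of all genes) and 1 a smaller one (4.65% of all genes). The 4 were among the 11 cell death genes, and counts this small do not set the members or that role apart from all genes. Trp53inp1 differed by 0.54 (SE 0.20, edgeR adjusted p = 0.381), Eda2r by 0.58 (SE 0.24, adjusted p = 0.449) and Apaf1 by 0.47 (SE 0.21, adjusted p = 0.479), while Fas differed by -0.56 (SE 0.25, adjusted p = 0.506). Without SRF-KO OL replicate 4, 8 members had a larger effect in OLs (8.27% of all genes) and 2 a smaller one (7.53% of all genes), and 0 passed adjustment. Leaving out any other library gave 1 to 4 larger and 0 or 1 smaller, with 1 larger without SRF-KO OPC replicate 1 or 3 or SRF-KO OL replicate 1 or 2. Library totals gave 6 larger (1855 of all 16135 genes) and limma on log2(TPM + 1) 7 (2253 of all 16135), with 0 members smaller. Under these settings the whole table moved, with medians over all genes of 0.22 and 0.23. Without SRF-KO OL replicate 4 the smallest edgeR adjusted p was that of Eda2r, 0.0629, with a difference of 0.72.

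At an unadjusted p under 0.05 the 17 members higher in OPCs and the 16 higher in OLs had 12 in common, 70.6% of the OPC set and 75% of the OL set. Over the 12666 genes tested in both stages, 723 were higher in OPCs, 717 in OLs and 72 in both, which is 9.96% of the OPC set and 10.04% of the OL set. Gdf15 is among the 17 but was not tested in OLs, while the shares over all genes use only genes tested in both stages. The stages share no library. The 12 were Cdkn1a, Btg2, Phlda3, Pmaip1, Fas, Pidd1, Aen, Eda2r, Ak1, Dcxr, Ephx1 and Slc19a2. Mdm2, Ccng1, Plk2, Ercc5 and Gdf15 (which could not enter the OL set) were in the OPC set alone, and Tnfrsf10b, Apaf1, Trp53inp1 and Polk in the OL set alone. Of these 9, Apaf1 and Trp53inp1 had an unadjusted interaction p under 0.05 and none passed adjustment, so membership of a single set does not show a difference between stages. The groups were separate in both stages for 7 genes, Btg2, Phlda3, Fas, Aen, Eda2r, Ak1 and Dcxr, 50% of the OPC set of 14 and 70% of the OL set of 10. Over all genes tested in both stages 50 were separate in both, 6.44% of the OPC set and 9.21% of the OL set.

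**Figure D4:**
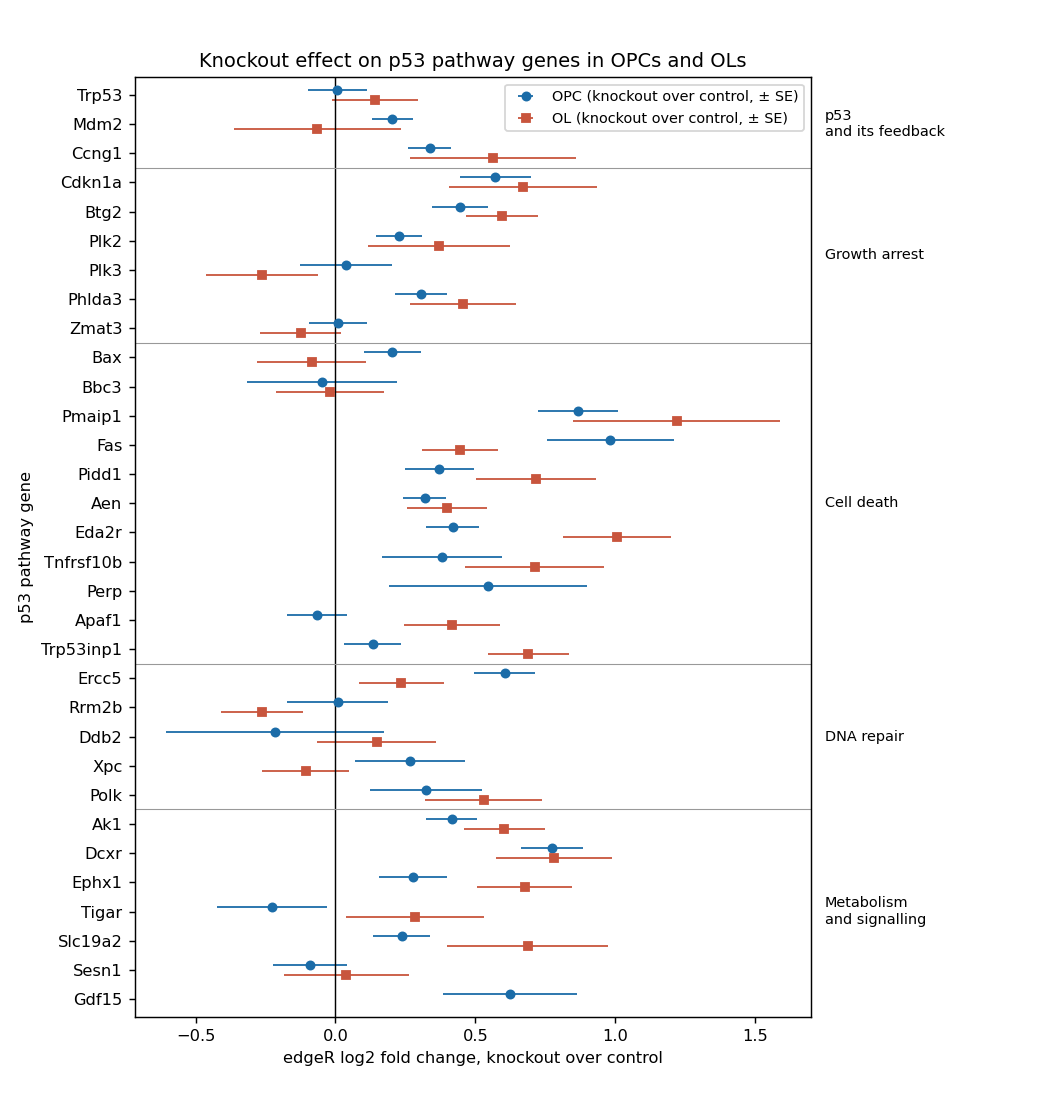
edgeR log2 fold change (knockout over control, horizontal axis) of each p53 pathway gene in OPCs (blue circles) and OLs (orange squares), grouped by role, with bars of ± 1 SE. Most points lie right of 0 in both stages, led by Fas (0.98) and Pmaip1 (0.87) in OPCs and by Pmaip1 (1.22) and Eda2r (1.01) in OLs. Perp and Gdf15 have no OL value.

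Levels between genes can be compared per length in OPCs, where TPM (which divides each count by transcript length before scaling to the library) uses spliced lengths. The OL tables list whole gene bodies, so their TPM was not used for this. In control OPCs the members ran from Bax at 665 ± 31.9 TPM and Cdkn1a at 628 ± 59.5 down to Perp at 2.29 ± 0.771 and Ddb2 at 2.19 ± 0.754 (SD, n = 4). Ccng1 (344 ± 54.95), Phlda3 (210.4 ± 17.6) and Plk2 (177 ± 19.1) followed the first pair. Mdm2 (109 ± 11.5), Trp53 (105 ± 6.57) and Ak1 (103 ± 9.70) were neighbours whose means differed by less than their SDs. The p53 targets were thus present in the control precursors over a wide range, with the cell cycle inhibitor Cdkn1a near the top. In SRF-KO OPCs Cdkn1a had 919 ± 134 TPM and Bax 745 ± 37.6 (SD, n = 3), in reverse order. DNA repair genes were low, the highest being Ercc5 at 26.8 ± 5.12 TPM in controls.

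**Figure D5:**
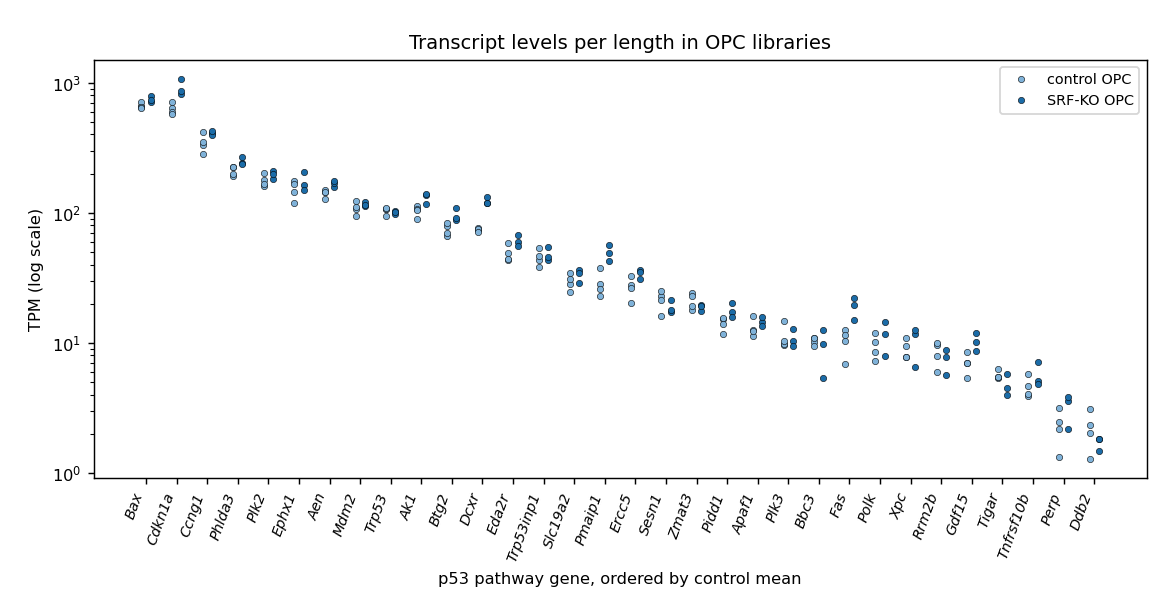
TPM (log axis) of the 32 p53 pathway genes in each control (light) and SRF-KO (dark) OPC library, ordered by control mean. Levels run from Bax (665 TPM in controls) and Cdkn1a (628) to Ddb2 (2.19), and the dark points of Cdkn1a and Dcxr sit above the light ones.

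Further lists of 3 kinds put the members in context, none of which had a member with an edgeR adjusted p under 0.05 in either stage. Regulators of p53, such as the damage kinases Atm and Atr, had a median of -0.05 over 15 tested in OPCs, 5 of them positive, and of 0.08 over 16 in OLs, 9 positive. Atr had the smallest p there in OPCs (log2 -0.44, SE 0.15, edgeR adjusted p = 0.321) and Rchy1, a ubiquitin ligase for p53, in OLs (0.33, SE 0.13, adjusted p = 0.358). At an unadjusted p under 0.05 these regulators were 0 higher and 2 lower in OPCs and 3 higher and 0 lower in OLs. Of all 13271 genes tested in OPCs, 739 were higher (5.57%) and 840 lower at that threshold. Of all 15193 tested in OLs, 887 were higher (5.84%) and 870 lower. A second set of genes that p53 can induce, such as Sesn2 and Gadd45a, had 18 of 22 tested positive in OPCs with a median of 0.16, and 13 of 21 in OLs with a median of 0.06. At an unadjusted p under 0.05 it had 2 of 22 higher (5.57% of all genes) and 0 lower in OPCs, led by the lipase Abhd4 (log2 0.44, SE 0.08, edgeR adjusted p = 0.0937). In OLs it had 3 of 21 higher (5.84% of all genes) and 1 lower, led by the matrix protein gene Thbs1 (0.83, SE 0.21, edgeR adjusted p = 0.167). Counts this small at that threshold do not set the list apart from all genes. By overlap, 5 of the 22 had every SRF-KO OPC library above every control (5.96% of all genes) and 1 below. In OLs 2 of the 21 lay above (4.19% of all genes) and 1 below. Its OL library medians were 0.12, 0.09, -0.09 and -0.09 in controls and 0.16, 0.20, 0.19 and -0.19 in knockouts, the last being replicate 4. No test was run over the list.

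Mitotic genes that p53 and p21 lower through the DREAM repressor complex were mostly slightly negative in OPCs and mostly positive in OLs. The interaction passed adjustment for 0 of 18 in edgeR. At an unadjusted p under 0.05, 8 were larger in OLs (4.6% of all genes) and 1 smaller (4.65% of all genes). In OPCs 3 of 18 were positive with a median of -0.11, and 3 were lower (840 of all 13271 genes) and 0 higher at an unadjusted p under 0.05. Ccna2, cyclin A2, had the smallest p (log2 -0.24, SE 0.07, edgeR adjusted p = 0.262). In OLs 17 of 18 were positive with a median of 0.34, and 8 were higher (5.84% of all genes) and 1 lower at that threshold. Ccnb1, cyclin B1, had the smallest p (0.61, SE 0.18, edgeR adjusted p = 0.231).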

How the data were processed

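PolyA RNA of 7 OPC and 8 OL cultures was made into Smart-seq2 libraries, which do not mark strand, per the labels' protocols, and groups follow the sample titles. The submitters' processing notes name RSEM, STAR and bcl2fastq but no version, and list the builds GRCm38 and Rnor_6.0 with no role for either. All gene identifiers are mouse. Each deposited table gives RSEM expected counts, in which reads matching several genes are shared out, together with TPM and FPKM made by the authors from those counts and gene lengths. FPKM values deposited by the authors carry the information of TPM and were not used. Among 8995 genes with a single spliced transcript, the deposited length equalled the spliced length in 89.8% of genes in OPC tables and 0% in OL tables, and the gene body in 90.0% to 90.1% in OL tables. OL counts may thus include intronic reads, and levels were not compared between stages.

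After rounding to whole numbers, the counts went into edgeR 4.0.16 under R 4.3.3 (filterByExpr, TMM scaling, quasi-likelihood F-test, Benjamini-Hochberg adjustment over all genes tested at 0.05), each stage alone and the interaction over 15 libraries. SE was taken as the size of the log2 fold change over the root of F. Heat map deviations use log2 CPM with a prior count of 2. Alternatives used DESeq2 1.42.0, limma 3.58.1 on log2(TPM + 1), other scalings and filters, the replicate block and leaving out each library. The edgeR fit, DESeq2, the replicate block and the fit with the length trend removed were run on simulated data for the OPC and OL comparisons. The other settings and the interaction were not. Values in every library are given for Trp53, Mdm2, Cdkn1a, members called in any of the 3 fits, and in each role the 2 tested members with the smallest p in each stage. From each further list the member with the smallest p is named where none passed. Depth limits precision, as counts per library show, and counts carry no molecular identifiers. The members and lists were chosen with earlier results of these data known. The summed level of the oligodendrocyte markers is not reported here.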

Additional observations from a re-analysis of the deposited data

Results flagged for a closer look

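In 12 of 96 groups of 4 libraries checked (each member in each group of that size), the highest or lowest library stood apart from the other 3 by more than Dixon's critical value of 0.829. Chance alone puts about 1 group in 20 past it, and the causes were not tested. SRF-KO OL replicate 4, the library that stood apart over all genes, accounted for 5 of the 12. It had 29.8 CPM of Mdm2, against 95.2 to 101 in the other SRF-KO OLs. It also had 166 CPM of Cdkn1a (others 71.1 to 79.5), 145 of Phlda3 (83.7 to 88.6), 79.8 of Aen (66.6 to 68.5) and 1.51 of Gdf15 (0.479 to 0.617). SRF-KO OL replicate 2 had 11.7 CPM of Plk3 (others 7.61 to 8.11).

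The remaining 6 were in controls. Control OL replicate 4 had 61.5 CPM of Phlda3 (others 76.9 to 78.3) and 5.10 of Bbc3 (6.58 to 6.70). Control OPC replicate 2 had 121 CPM of Zmat3 (others 96.03 to 98.7) and 12.7 of Tnfrsf10b (8.51 to 9.03). Control OPC replicate 4 had 149 CPM of Btg2 (others 131 to 132), and control OPC replicate 3 had 20.98 of Plk3 (15.6 to 16.5). The 3 SRF-KO OPC libraries are too few for this check.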

How the results depend on the processing

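Counts of called genes over the whole table moved most. In OPCs 9 genes were called with edgeR, 139 with DESeq2, 101 with no filter on low counts, 2 with the replicate block, 29 with the length trend removed, 21 with all 15 libraries in 1 fit, 5 with limma on log2(TPM + 1), and 1 to 4 when a library was left out. In OLs 45 were called, with the same alternatives giving 299, 129, 5, 70, 96 and 3, library totals 74, and leaving out a library 7 to 636, the highest without SRF-KO OL replicate 4. For the interaction 18 were called, 169 with DESeq2, 88 with no filter, 46 with the length trend removed, 32 with limma, and 4 to 134 when a library was left out.

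The members' medians moved less, but the number of members called also changed. In OPCs 1 was called with edgeR, 10 with DESeq2, 6 with no filter on low counts and 0 when any library was left out. In OLs 0 were called with edgeR, 6 with DESeq2 and 11 without SRF-KO OL replicate 4. The count of members higher in OPCs at an unadjusted p under 0.05, 17 as reported, was 10 with all 15 libraries and 11 with limma. The OL count of 16 was 10 with the replicate block and 20 with library totals. The OPC median of 0.29 was 0.21 with limma and 0.24 to 0.32 when a library was left out. With library totals the OL median was 0.65, the median of all genes went from 0.02 to 0.24, and the members' median relative to all genes was 0.41 under both scalings. Same-numbered libraries did not deviate together (correlations of -0.02 to 0.05 in OPCs and -0.28 to 0.03 in OLs), so the numbers were not taken to pair cultures, and with the replicate block 0 members were called in either stage.

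Single genes changed sign only near 0. In OPCs Trp53 (0.01) was -0.018 with the length trend removed, -0.055 with limma and -0.072 to 0.063 when a library was left out. Rrm2b (0.01) was -0.095 with the replicate block, -0.15 with limma and -0.12 to 0.19 when a library was left out. In OLs Trp53 (0.14) was -0.019 to 0.21 and Mdm2 (-0.07) was -0.20 to 0.18 when a library was left out, and Mdm2 was 0.16 with library totals. Of the other values of named members under the alternatives, 405 kept direction and side of the threshold, 36 passed it and 9, all for Dcxr in OPCs, no longer did. Depth limited Perp and Gdf15 in OLs and Ddb2 in OPCs.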
